A study of Mus musculus with 7 samples.

Results

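The genes described here code for the constitutive proteasome, and they were taken by name: every non-control row whose gene name in the scanner files begins with Psma, Psmb, Psmc, Psmd or Psme, other than the interferon-induced Psmb8 and Psmb9. The rule found 61 probes and 41 gene names among 41174 probes, and all 41 names were among the 17111 genes tested. By role they were 16 core subunits, 17 subunits of the base and lid, 3 base assembly chaperones, 4 activators and Psmc3ip, a partner in meiotic recombination that carries the prefix but is no proteasome subunit. Of the probes, 59 passed the filter on dim signal, and 1 probe a gene was used, the brightest. Of the 41 probes used, all but that of Psma8 were well above background in 14 of the 14 samples. No row was named Psmb11, the thymus core subunit. The activator subunit Psme2 was present only under the name Psme2b-ps, that of a near-identical copy, and signal of the copies cannot be told apart.

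RNA came from the dorsal skin of male HR-1 hairless mice, aged 5 weeks and given the AIN-93G diet either with glucosylceramide (GC), a sugar-bearing ceramide lipid, or without it. The 4 groups were GC-fed skin after SDS (n = 4), control-fed skin after SDS (n = 4), GC-fed skin before SDS (n = 3) and control-fed skin before SDS (n = 3). SDS is a detergent that injures the skin barrier; it was applied at 10% for 5 minutes a day on 2 days to the skin collected at 14 days of diet, while skin before SDS was collected at 12 days. Each of 7 two-colour arrays held a GC-fed and a control-fed sample, with the GC-fed sample in Cy3, the green dye, on before-SDS array 1 and after-SDS arrays 1 and 2, and in Cy5, the red dye, on the other 4. The labels number the replicates without saying that each is a separate animal, so p-values measure the spread between these samples.

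The proteasome breaks down proteins that carry a ubiquitin chain. Its barrel-shaped core is built of outer rings of alpha subunits, which gate the entry, and inner rings of beta subunits, some of which cut the protein. A regulatory particle caps the core: its base holds ATPases that unfold the substrate, and its lid removes the ubiquitin. Other caps, the activators, open the core without ubiquitin. In interferon-stimulated cells the cutting subunits Psmb5, Psmb6 and Psmb7 are replaced by Psmb8, Psmb9 and Psmb10, so Psmb10 belongs to the immunoproteasome although its name falls under the rule. When proteasome activity falls short, the transcription factor Nfe2l1 is known to raise the genes of the core and regulatory particle together, through antioxidant response elements in their promoters.

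The tissue was bulk skin, and fewer cells of a type and less RNA per cell cannot be told apart in it. All 8 keratinocyte markers were measured, while the liver markers Apoa1, Ttr and Fgb were well above background in 0 of 14 samples. Not all liver markers were undetected: Alb was well above background in 9 of 14 samples and Cyp2e1 in 14 of 14. All arrays from before SDS lay on 1 slide scanned together, those from after SDS on another, so SDS and slide cannot be told apart. Skin after SDS also had 14 days of diet against 12, so SDS cannot be told apart from those days either. Over all genes, diet ratios on after-SDS array 4 ran against the other after-SDS arrays, with r = -0.50 for array 1, -0.62 for array 2 and -0.30 for array 3; the labels state the dyes, and the direction they give was kept. Results on diet after SDS are therefore also given without array 4. Across genes, which are not independent replicates, before-SDS array 1 likewise ran against arrays 2 and 3, at r = -0.40 and -0.18.

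No proteasome gene passed the test for diet. After SDS the log2 diet ratio, GC-fed over control-fed, had a median of 0.03 over the 41 names, ranged from -0.29 for Psmb10 to 0.19 for Psmc6, and lay above 0 for 28 of 41. No name passed limma's test with Benjamini-Hochberg adjustment (0 of 41, against 0% of all genes in either direction), and 2 of 41 had an unadjusted p under 0.05, against 4.45% of all genes. The 95% intervals of the 41 log2 ratios lay between -0.60 and 0.42, so none of them reached 1 or -1 on the log2 scale. Over all genes the median ratio was 0.00. The sign of the proteasome median depended on the normalization: with each array centred on its median in place of loess it was -0.04, with 12 of 41 names above 0, and without after-SDS array 3 it was 0.00, with 20 above 0.

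The 2 names with an unadjusted p under 0.05 after SDS were an ATPase of the base and a nuclear activator. Psmc6, the ATPase, had log2 ratios of 0.15, 0.17, 0.31 and 0.11 on arrays 1 to 4, all above 0, and a fitted effect of 0.19 ± 0.067 (SE, unadjusted p = 0.0299, limma's adjusted p = 0.835). Its other probe had -0.24, 0.09, 0.28 and -0.04, on both sides of 0, and a fitted effect of 0.02 (unadjusted p = 0.792, limma's adjusted p = 0.955), so the Psmc6 value rests on 1 of its 2 probes. Psme3, the activator of nuclear proteasomes, had log2 ratios of -0.45, -0.30, -0.29 and -0.05, all below 0, and a fitted effect of -0.27 ± 0.065 (SE, unadjusted p = 0.00464, limma's adjusted p = 0.835). Over its 16 alternative settings Psme3 ranged from -0.32 to -0.22. The other name with the same sign on all 4 arrays was Psme2b-ps, at 0.14, 0.06, 0.21 and 0.02. Those 2 of 41 names above 0 on 4 of 4 arrays and 1 of 41 below stand beside 3.37% and 4.62% of all genes.

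**Figure D1:**
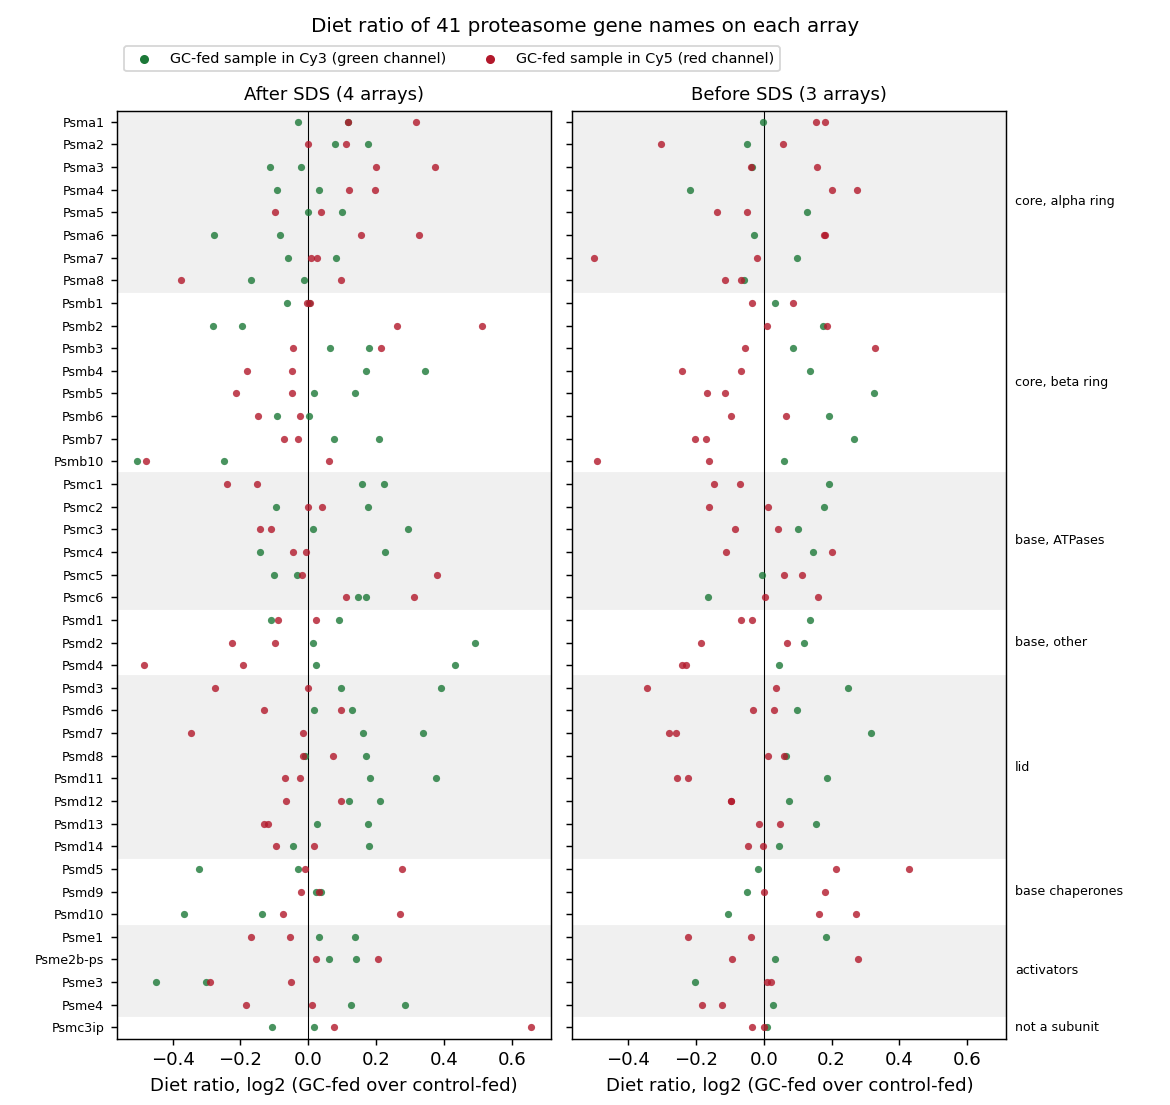
Log2 diet ratio (GC-fed over control-fed) of the 41 proteasome gene names on each array, with the 4 after-SDS arrays on the left and the 3 before-SDS arrays on the right. Each point is 1 array and its colour gives the dye of the GC-fed sample; most base and lid names have their green points to the right of their red ones, and the after-SDS points of Psme3 all lie below 0.

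The cutting subunits are given next to their immunoproteasome counterpart. Psmb5, the chymotrypsin-like subunit, had ratios of 0.14, 0.02, -0.05 and -0.21 after SDS, Psmb6, the caspase-like one, 0.00, -0.09, -0.02 and -0.15, and Psmb7, the trypsin-like one, 0.08, 0.21, -0.03 and -0.07. None of the 3 kept a sign on all 4 arrays, and their fitted effects were -0.03, -0.07 and 0.05 on the log2 scale. Psmb10, the immunoproteasome counterpart of Psmb7, had ratios of -0.51, -0.25, -0.48 and 0.06, below 0 on arrays 1 to 3 and above 0 on array 4, with a fitted effect of -0.29 ± 0.13 (SE, limma's adjusted p = 0.835). Without array 4 it was -0.45, at an adjusted p of 0.0564, the lowest of its 16 alternatives. The immunoproteasome subunits left out by the rule lay on the same side: Psmb8 at -0.32 and Psmb9 at -0.27, both with limma's adjusted p = 0.835.

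Interferon response genes and macrophage markers are given beside those low ratios; by limma's adjusted p 0 of 10 passed in each list. The median log2 ratio of 10 interferon response genes on after-SDS arrays 1 to 4 was -0.29, -0.36, -0.52 and 0.18, and that of 10 macrophage markers was -0.77, -0.55, -1.23 and 0.48. Both lists, like Psmb10, were below 0 on arrays 1 to 3 and above 0 on array 4, a sign pattern of 17.2% of all genes. Psmb8 and Psmb9 did not share it and were below 0 on array 4 too. Psmb8 had -0.67, -0.18, -0.42 and -0.02 on arrays 1 to 4, and Psmb9 -0.46, -0.12, -0.22 and -0.27. The summed intensity of the 10 macrophage markers ranged from 68424 to 220936 in GC-fed skin after SDS and from 77325 to 249578 in control-fed skin after SDS, and all 10 were well above background in 14 of 14 samples. The summed intensity of 9 of the interferon response genes ranged from 10932 to 17872 in GC-fed skin after SDS and from 14988 to 19638 in control-fed skin after SDS. The other lists lay on either side of 0 on the same arrays, again with no gene past limma's adjusted p. The median log2 ratio of 8 keratinocyte markers was 0.94, 0.28, 0.79 and -0.32, that of 8 adipocyte markers -0.23, -0.40, -0.97 and -0.19, and that of 10 skeletal muscle markers -1.19, -0.31, -1.15 and -0.26. For 6 dermal fibroblast markers it was -0.14, 0.21, 0.54 and 0.53, and for 6 endothelial markers -0.02, -0.07, -0.49 and -0.02. For 9 hair follicle markers it was -0.73, 0.03, 1.25 and -0.16. At an unadjusted p under 0.05 were 0 of 8 keratinocyte, 6 of 8 adipocyte and 7 of 10 skeletal muscle markers, against 4.45% of all genes. The adipocyte and muscle ones were lower in GC-fed skin. That p was also reached by 3 of 6 dermal fibroblast markers, which were higher. It was reached by 2 of 10 interferon, 1 of 10 macrophage and 1 of 6 endothelial genes, which were lower, and by 0 of 9 hair follicle markers. The part of these lists in the Psmb10 ratio, and in the other diet ratios after SDS, was not tested.

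Leaving out array 4 changed the count over all genes. Without it, 251 genes were higher in GC-fed skin after SDS (1.47% of all genes) and 677 lower (3.96%), against 0 of the 41 proteasome names by limma's adjusted p. Without array 4, 5 of 41 names had an unadjusted p under 0.05, against 24.2% of all genes, namely Psme3, Psmb10, Psmc6, the testis core subunit Psma8 and Psma1, an alpha-ring subunit, and the lowest adjusted p among the 41 was 0.056. The median over the 41 was then 0.04, with 29 above 0. With all 4 arrays, 6 names were above 0 on arrays 1 to 3 and below 0 on array 4 (13.0% of all genes), and 3 names, Psma8, Psmb10 and the base chaperone Psmd10, showed the opposite pattern (17.2% of all genes).

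Before SDS the values were of similar size. The log2 diet ratio had a median of 0.03 over the 41 names, ranged from -0.19 for Psmb10 to 0.15 for the base chaperone Psmd5, and was above 0 for 28 of 41. The arrays did not share that sign: on arrays 1 to 3 the median was 0.07, -0.03 and -0.03, with 29, 16 and 19 names above 0. With no dye term the fitted median was 0.01, with 22 names above 0, and with a replicate block 0.00, with 21. No name passed limma's test (0 of 41, against 0% of all genes in either direction), and 0 of 41 had an unadjusted p under 0.05, against 0.397% of all genes. On 3 of 3 arrays the ratio was above 0 for 2 names, the beta-ring subunit Psmb2 and the lid subunit Psmd8 (9.30% of all genes), and below 0 for 1, Psma8 (9.61%). Psmb10 had ratios of 0.06, -0.16 and -0.49 on arrays 1 to 3, and Psme3 -0.20, 0.01 and 0.02. Neither kept a sign across the 3 arrays. Without before-SDS array 1, 0 names and 0 genes passed, and the median over the 41 was 0.01.

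By group, the names with the smallest unadjusted p before SDS were Psmb10, Psmb3, Psma1 and Psma7 in the core, at -0.19, 0.12, 0.08 and -0.12 on the log2 scale. In the base and lid they were Psmd13, Psmc4, Psmd8 and Psmc1, at 0.09, 0.09, 0.05 and 0.05. After SDS they were Psmb10, Psma1, Psma3 and Psma8 in the core, at -0.29, 0.13, 0.11 and -0.11, and Psmc6, Psmd11, Psmd12 and Psmd8 in the base and lid, at 0.19, 0.12, 0.09 and 0.05. Psma1, which rings the entry of the core, was the only one among the 4 core names of both lists besides Psmb10. All of these had limma's adjusted p between 0.835 and 1.00. The remaining activators were near 0 after SDS, Psme4, which caps nuclear proteasomes, at 0.06 and Psme1, the partner of Psme2, at -0.01. Psmc3ip, the name that is no subunit, had ratios of 0.02, -0.11, 0.66 and 0.07 on after-SDS arrays 1 to 4, with array 3 far above the others, and a fitted effect of 0.16.

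The diet effect after SDS less that before SDS was tested in the same fit. Its median over the 41 names was 0.00, 21 of 41 were above 0, and 0 of 41 passed limma's adjusted p, against 0% of all genes in either direction. At an unadjusted p under 0.05 the count was 0 of 41 names, against 1.22% of all genes. The differences ranged from -0.18 for Psme3 to 0.21 for Psmc6 and Psmc3ip. In the core the smallest p belonged to Psma2 at 0.18, Psmb6 at -0.14, Psma3 at 0.12 and Psmb5 at -0.09, and in the base and lid, after Psmc6, to Psmd11 at 0.15, Psmd13 at -0.11 and Psmd12 at 0.10. The second probe of Psmc6 gave -0.06 where the probe used gave 0.21, so the probes of that gene disagreed in sign.

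The ratios of the proteasome names split by the dye of the GC-fed sample. In the 9 pairs of arrays with the GC-fed sample in the same dye, the log2 ratios of the 41 names correlated above 0 in 9 of 9, at a median r of 0.43, and in the 12 pairs of opposite dye in 0 of 12, at a median r of -0.41. Over all genes the medians were 0.05 and -0.04, and 6 of 9 and 5 of 12 pairs were above 0. Written as red over green, all 21 pairs of arrays had a positive correlation over the 41 names, from 0.02 to 0.75. These correlations are a description over 41 genes whose probes are shared by all arrays, and the 7 arrays fall in 2 slides.

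**Figure D2:**
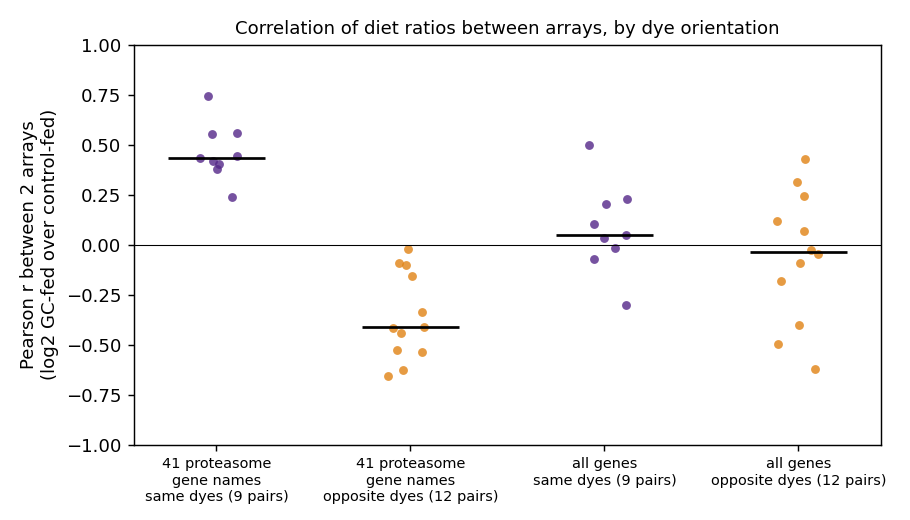
Pearson correlation of log2 diet ratios between 2 arrays, split by whether the GC-fed sample carried the same dye on both, for the 41 proteasome gene names (left pair of columns) and all genes (right pair). Points are pairs of arrays and the line is the median; for the proteasome names the 9 same-dye pairs all lie above 0 and the 12 opposite-dye pairs all below.

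The dye term of the fit gave the size of that pattern for each gene. An unadjusted p under 0.05 for it was reached by 14 of 41 names, or 34.1%, against 12.5% of all genes, and by limma's adjusted p 0 genes passed. Of the 14, 10 were brighter in green and 4 in red. The base and lid leaned to green: 15 of 17 names were below 0 as log2 red over green, with a median of -0.08 and a lowest value of -0.25 ± 0.059 (SE) for Psmd7, a lid subunit that partners the deubiquitinase Psmd14. The base chaperones were 3 of 3 above 0, though Psmd9 lay near 0, at 0.02 ± 0.048 (SE). No share of all genes by the sign of the dye term is given beside these counts.

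The base and lid show the split array by array. The median log2 ratio of the 17 names on after-SDS arrays 1 to 4 was 0.18, 0.09, -0.01 and -0.09, with 14, 13, 7 and 2 names above 0, and the GC-fed sample was in Cy3 on arrays 1 and 2. On before-SDS arrays 1 to 3 the medians were 0.12, -0.10 and 0.00, with 15, 4 and 9 names above 0, and Cy3 held the GC-fed sample on array 1. By the probe used, Psmd7 had ratios of 0.16, 0.34, -0.02 and -0.35 after SDS and 0.32, -0.26 and -0.28 before SDS, above 0 on each array with GC-fed RNA in Cy3 and below 0 on each with it in Cy5. Another Psmd7 probe split likewise, at 0.08, 0.38, -0.09 and -0.24 after SDS and 0.26, -0.16 and -0.20 before SDS. A further Psmd7 probe did not, at 0.02, 0.45, 0.57 and -0.07 after SDS and -0.11, -0.17 and -0.16 before SDS. After SDS each orientation was used on 2 arrays, so a dye effect cancels in the mean, and before SDS the dye term enters the fitted value. The fitted diet effects of Psmd7 by the probe used were 0.04 after SDS and 0.01 before SDS.

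After SDS a few subunits of the core, base and lid, with a base chaperone and an activator, stood higher. In these comparisons SDS, slide and days of diet cannot be told apart. Levels are log2 intensities of 1 probe in each of the 14 samples, and effects are after SDS over before SDS within a diet. In GC-fed skin 3 of 41 names rose and 0 fell by limma's adjusted p, or 7.3% of names, against 6.13% of all genes higher and 7.46% lower, a share near the background. In control-fed skin 7 of 41 rose and 0 fell, or 17.1%, against 6.70% of all genes higher and 8.44% lower. The counts of 0 lower names rest on the brightest probe of a gene: other probes of Psma4 and Psme4 passed as lower in both diets, and other probes of Psmd7 and Psmd12 in control-fed skin. The median effect over the 41 names was 0.07 in GC-fed and 0.05 in control-fed skin, with 29 and 27 of 41 above 0, against 0.00 over all genes in both. The difference between the diets in these effects is the diet difference tested above, where 0 of 41 passed.

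Psmd3, a scaffold subunit of the lid, showed the largest effect of the 41 in both diets. Its level was 15.44, 15.29, 15.17 and 14.96 in GC-fed skin after SDS, against 14.93, 14.63 and 14.77 before SDS. It was 15.04, 15.19, 15.17 and 15.23 in control-fed skin after SDS, against 14.68, 14.97 and 14.74 before SDS. The groups did not overlap in either diet, and the log2 effect was 0.40 ± 0.087 in GC-fed skin and 0.40 ± 0.087 in control-fed skin (SE, limma's adjusted p = 0.0128 and 0.0119), a fold of 1.32 in both.

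Of the cutting subunits, Psmb5 rose in both diets and Psmb6 in control-fed skin, while Psmb7 passed in neither. Psmb5 stood at 13.03, 12.90, 12.88 and 12.82 in GC-fed skin after SDS, against 12.86, 12.56 and 12.57 before SDS. It stood at 12.89, 12.88, 12.92 and 13.04 in control-fed skin after SDS, against 12.54, 12.73 and 12.69 before SDS. Only the control-fed groups were free of overlap, with effects of 0.22 ± 0.064 in GC-fed skin and 0.31 ± 0.064 in control-fed skin (SE, limma's adjusted p = 0.0438 and 0.00955).

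Psmb6 stood at 14.40, 14.52, 14.49 and 14.41 in GC-fed skin after SDS, against 14.31, 14.20 and 14.22 before SDS. It stood at 14.40, 14.62, 14.51 and 14.56 in control-fed skin after SDS, against 14.12, 14.30 and 14.15 before SDS. The groups did not overlap in either diet, yet the effect passed in control-fed skin alone, at 0.34 ± 0.069 (SE, limma's adjusted p = 0.00856), and was 0.20 ± 0.069 in GC-fed skin (adjusted p = 0.0702). The difference between these effects, GC-fed less control-fed, was -0.14, with a 95% interval from -0.38 to 0.10, and did not pass in its own test.

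Psmb7 stood at 11.60, 11.34, 11.40 and 11.47 in GC-fed skin after SDS, against 11.77, 11.54 and 11.43 before SDS. It stood at 11.53, 11.13, 11.43 and 11.54 in control-fed skin after SDS, against 11.51, 11.71 and 11.63 before SDS. The groups overlapped in both diets, and the effects were -0.15 in GC-fed skin and -0.18 in control-fed skin (limma's adjusted p = 0.325 and 0.213). Psmb10 stood at 13.58, 13.43, 13.49 and 13.47 in control-fed skin after SDS, against 13.11, 13.07 and 13.24 before SDS, without overlap, at an effect of 0.36 ± 0.13 (SE, limma's adjusted p = 0.0713). Its effect in GC-fed skin was 0.25 (limma's adjusted p = 0.193), where the 4 after-SDS samples lay at 13.08, 13.18, 13.01 and 13.54, against 13.17, 12.91 and 12.75 before SDS.

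**Figure D3:**
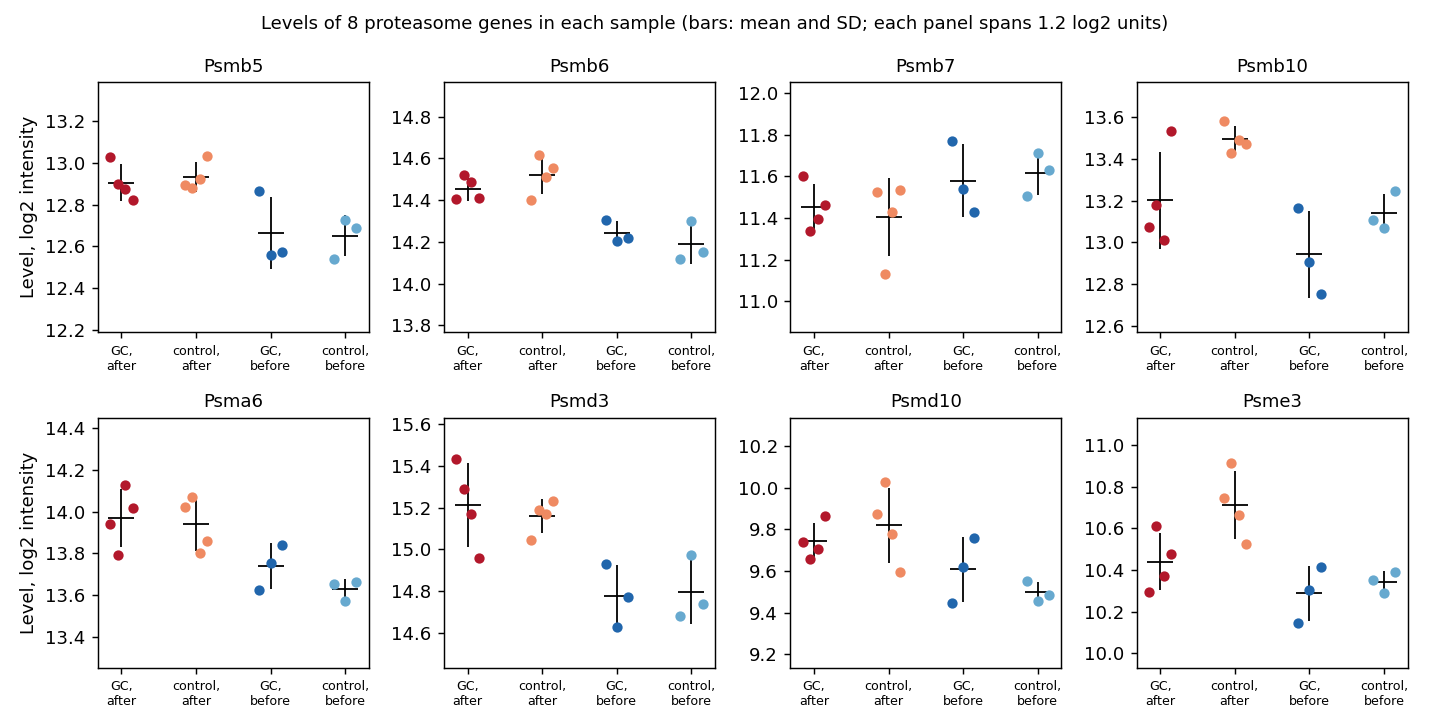
Level of 8 proteasome genes (log2 intensity, separate-channel values) in each sample of GC-fed and control-fed skin after SDS and before SDS, from left to right in each panel, with the mean and SD as bars. In Psmb6 and Psmd3 the after-SDS points lie above the before-SDS points in both diets, and in Psmb7 they overlap.

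In the alpha ring Psma6 was the subunit that passed. Its level was 13.94, 13.79, 14.13 and 14.02 in GC-fed skin after SDS, against 13.62, 13.75 and 13.84 before SDS. It was 14.02, 14.07, 13.80 and 13.86 in control-fed skin after SDS, against 13.65, 13.57 and 13.66 before SDS. The effect was 0.26 ± 0.067 in GC-fed skin and 0.28 ± 0.067 in control-fed skin (SE, limma's adjusted p = 0.0258 and 0.0164), with overlap in GC-fed skin only. Other alpha-ring genes pointed either way: Psma2 had effects of 0.35 in GC-fed and 0.17 in control-fed skin (limma's adjusted p = 0.0743 and 0.349), and Psma4 of -0.29 and -0.31 (adjusted p = 0.126 and 0.0918). By its other probe Psma4 was lower, at -0.44 in GC-fed skin and -0.45 in control-fed skin (limma's adjusted p = 0.0265 and 0.0210), and it passed in both diets under 2 of 16 alternatives, with the mean over probes and without after-SDS array 1. Psma8 had effects of 0.12 and 0.17, at adjusted p of 0.454 and 0.28.

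Another 3 names passed in control-fed skin alone. Psmc1, an ATPase of the base, had an effect of 0.15 in GC-fed skin and 0.21 ± 0.058 in control-fed skin (SE, limma's adjusted p = 0.0966 and 0.0334). Psmd10, a base chaperone also known as gankyrin, stood at 9.88, 10.03, 9.78 and 9.60 in control-fed skin after SDS, against 9.55, 9.46 and 9.49 before SDS, an effect of 0.29 ± 0.078 (SE, limma's adjusted p = 0.0277), and 0.16 in GC-fed skin (adjusted p = 0.186). In GC-fed skin Psmd10 stood at 9.74, 9.66, 9.70 and 9.87 after SDS, against 9.45, 9.62 and 9.76 before SDS, with overlap. Psme3 stood at 10.75, 10.91, 10.66 and 10.52 in control-fed skin after SDS, against 10.35, 10.29 and 10.39 before SDS. Its effect was 0.17 in GC-fed skin and 0.35 ± 0.095 in control-fed skin (SE, limma's adjusted p = 0.259 and 0.0293), and the difference between diets, -0.18, did not pass in its own test. On each after-SDS array Psme3 was lower in the GC-fed sample, whose levels were 10.30, 10.61, 10.37 and 10.47, against 10.15, 10.30 and 10.41 in GC-fed skin before SDS.

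Counts of names whose groups did not overlap lay on either side of the background. In control-fed skin 8 of 41 names had all after-SDS samples above all before-SDS samples, against 14.5% of all genes, and 2, the beta-ring subunits Psmb1 and Psmb4, had them all below, against 16.3%. In GC-fed skin 4 of 41, namely Psma2, Psma7, Psmb6 and Psmd3, had them all above, against 11.1%, and 0 had them all below, against 12.3%. The activator names apart from Psme3 showed small effects of either sign: Psme1 had 0.07 in GC-fed skin and 0.09 in control-fed skin, and Psme2b-ps -0.10 and -0.14 (limma's adjusted p from 0.272 to 0.58). Among base and lid names with the smallest p, Psmd13 was at -0.18 and Psmd11 at 0.22 in GC-fed skin, and Psmd2 at -0.17 and Psmc5 at -0.12 in control-fed skin, with adjusted p from 0.151 to 0.339.

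**Figure D4:**
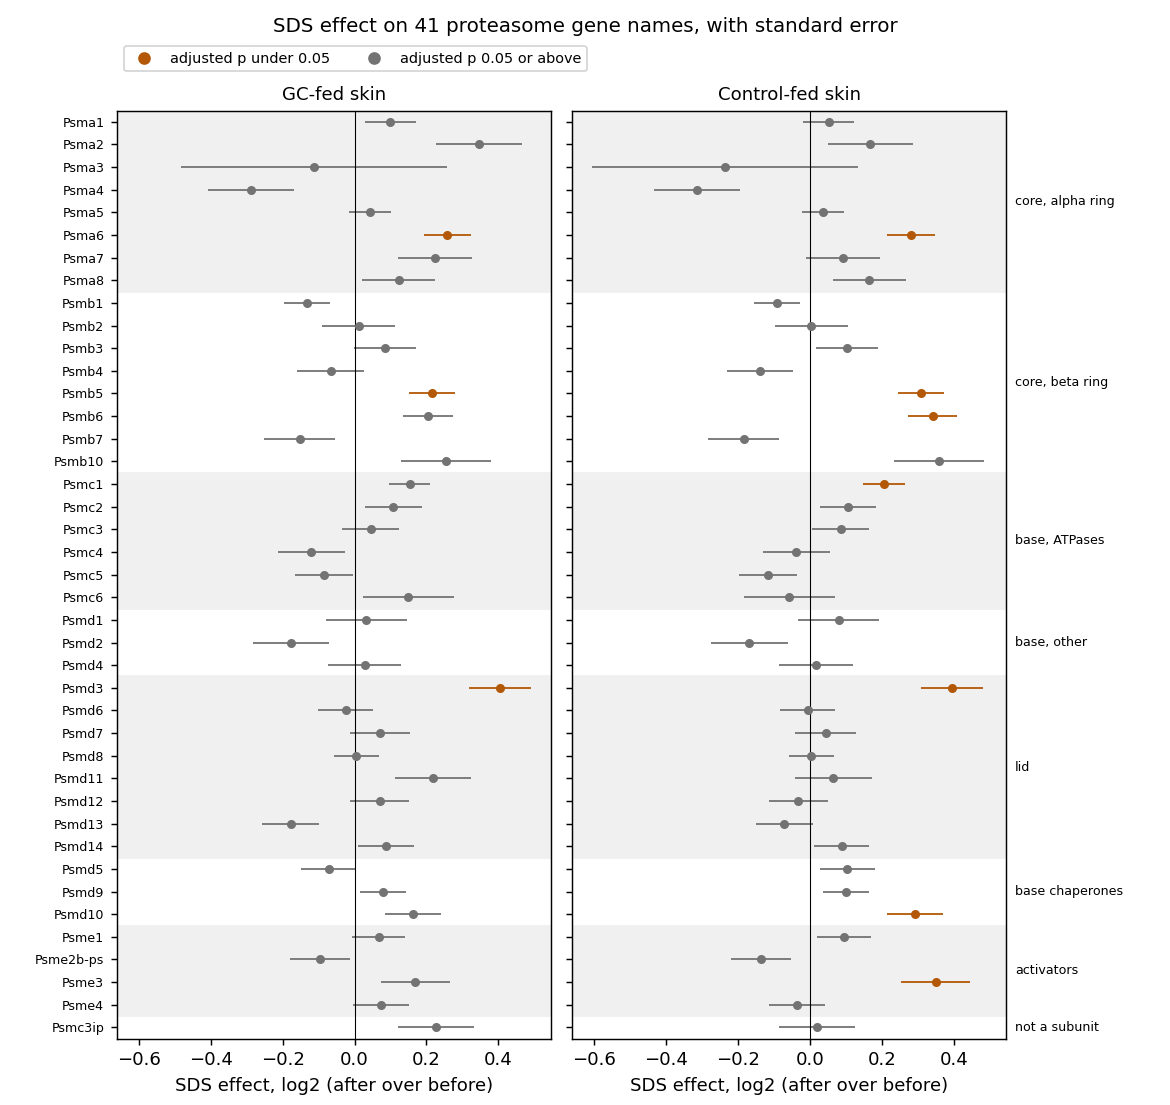
SDS effect (log2, after over before) on the 41 proteasome gene names in GC-fed skin (left) and control-fed skin (right), with the standard error as bars. Coloured points passed an adjusted p of 0.05: 3 on the left and 7 on the right, all above 0.

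The counts moved with the arrays and settings used. Without before-SDS array 1 the count in control-fed skin was 0 of 41 names, while the count over all genes was 45 higher and 97 lower, and without before-SDS arrays 2 and 3 it was 3 and 2 names. In GC-fed skin the count was 0 without before-SDS array 2 and 0 without after-SDS array 3. With channels centred on their median in place of Aquantile, 0 names and 0 genes passed in either diet. Across 16 alternatives in control-fed skin, Psmb5 passed in 14, Psmb6 and Psmd3 in 13, Psma6 in 12, Psme3 in 8, Psmd10 in 7 and Psmc1 in 6. In GC-fed skin Psmd3 passed in 11 of 16, Psma6 in 6 and Psmb5 in 4. The effects of all these names were above 0 under every one of the 16 alternatives.

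**Figure D5:**
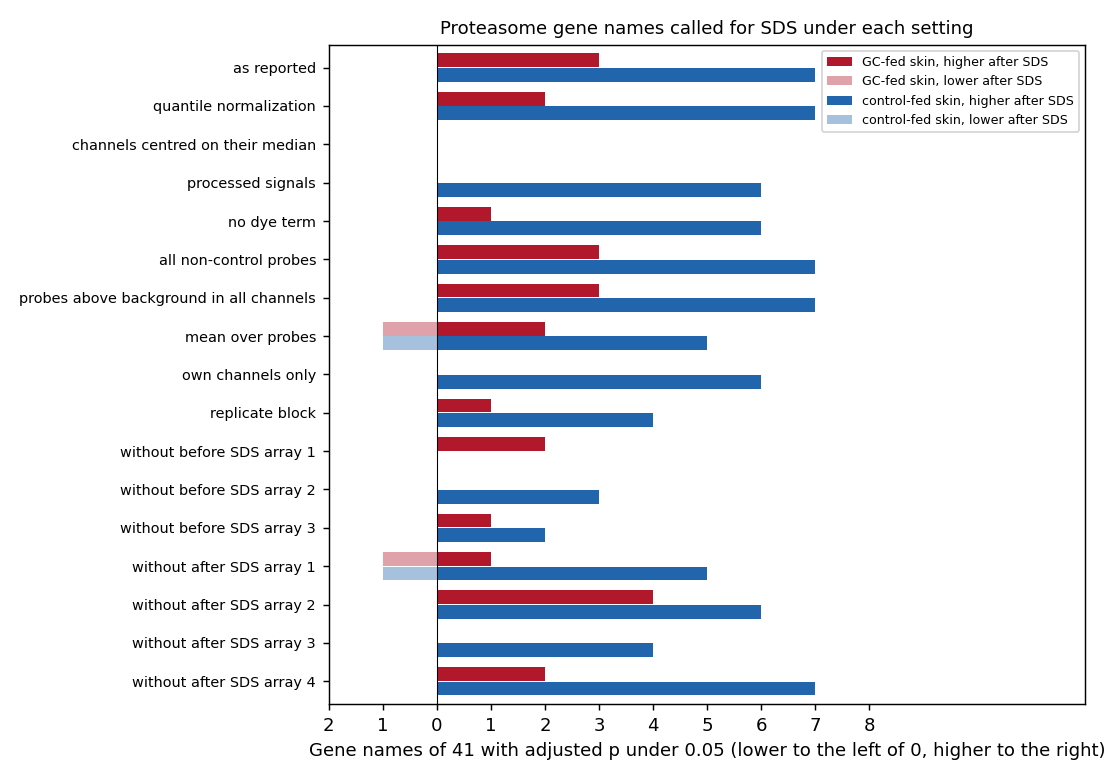
Number of the 41 proteasome gene names with an adjusted p under 0.05 for SDS under each setting, in GC-fed skin (upper bar of each pair) and control-fed skin (lower bar), with names lower after SDS drawn to the left of 0. The counts run from 0 to 4 for GC-fed skin and from 0 to 7 for control-fed skin.

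Probes of a gene did not always agree on SDS. Psme4 had an effect of 0.07 in GC-fed skin by the probe used and -0.42 by another probe (limma's adjusted p = 0.00720), and in control-fed skin -0.04 and -0.36 (adjusted p of the other probe = 0.00976), so no direction is given for it. Psmd7 had 0.04 in control-fed skin by the probe used and -0.46 by another (limma's adjusted p = 0.0317). Psmd12, a lid subunit, had 3 probes, at -0.03, 0.22 and -0.31 in control-fed skin, the first being the probe used and the last passing as lower (limma's adjusted p = 0.0240), and at 0.07, 0.16 and -0.20 in GC-fed skin, so no direction is given for it either. In control-fed skin Psmc5 had -0.12 by the probe used and 0.28 by another. In GC-fed skin Psmd9 had 0.08 and -0.17, and Psmc3ip 0.23 and -0.03. Psmd3, Psmb5, Psmb6, Psma6, Psmc1, Psmd10 and Psme3 each had 1 probe, so their effects have no check by another probe.

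Hair follicle markers were higher after SDS in both diets. All 9 measured of that list were above 0, with a median log2 effect of 1.59 in GC-fed skin and 0.90 in control-fed skin, and 6 and 3 of them passed. Their summed intensity ranged from 263465 to 455026 in GC-fed skin after SDS against 64243 to 177945 before SDS, and from 183205 to 435551 in control-fed skin after SDS against 70485 to 396250 before SDS. Of the keratinocyte list, 0 of 7 passed in GC-fed skin and 1 of 7, Krtdap, fell in control-fed skin. Of 8 adipocyte markers Adipoq, Plin1 and Lep rose in control-fed skin and Lipe fell in GC-fed skin. Of 6 endothelial markers Cdh5 and Emcn fell in GC-fed skin, by 0.30 and 0.32 on the log2 scale, and 0 passed in control-fed skin. Of 10 skeletal muscle markers 0 passed in GC-fed skin and Actn3 rose in control-fed skin, by 2.03. Of the 6 dermal fibroblast and 10 macrophage markers 0 passed in either diet. The calls for these marker lists stand beside 6.13% of all genes higher and 7.46% lower in GC-fed skin. For control-fed skin the shares were 6.70% and 8.44%. SDS, slide and days of diet cannot be told apart here either, and with channels centred on their median 0 genes passed in either diet. The part of cell makeup in the proteasome effects was not tested.

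Promoters of 4 genes that were higher after SDS in control-fed skin are shown as RefSeq gives them on mouse build GRCm38.p6: the 3 core subunits that passed, and Psmd10, chosen after its matches were seen because it held the most CCAAT boxes. Each is the 250 bases before the start used in the RefSeq promoter table, written 5' to 3' on the gene's strand: Psma6 at chr12:55383972-55384221 (plus), Psmb5 at chr14:54617996-54618245 (minus), Psmb6 at chr11:70525107-70525356 (plus) and Psmd10 at chrX:140956712-140956961 (minus). Capitals mark letters that match the antioxidant response element core TGANNNNGC, the CCAAT box CCAAT or the GC box GGGCGG on either strand, and no matches overlap in these 4.
Psma6: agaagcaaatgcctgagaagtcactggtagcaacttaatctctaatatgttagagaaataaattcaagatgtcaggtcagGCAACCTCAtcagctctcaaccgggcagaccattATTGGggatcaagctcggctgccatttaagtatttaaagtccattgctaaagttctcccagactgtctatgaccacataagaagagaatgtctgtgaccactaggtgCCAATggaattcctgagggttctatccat
Psmb5: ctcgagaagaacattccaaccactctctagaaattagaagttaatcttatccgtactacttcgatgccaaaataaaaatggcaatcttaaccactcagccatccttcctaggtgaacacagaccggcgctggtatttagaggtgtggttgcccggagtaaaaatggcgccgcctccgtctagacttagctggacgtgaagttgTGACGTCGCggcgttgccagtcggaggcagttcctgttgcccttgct
Psmb6: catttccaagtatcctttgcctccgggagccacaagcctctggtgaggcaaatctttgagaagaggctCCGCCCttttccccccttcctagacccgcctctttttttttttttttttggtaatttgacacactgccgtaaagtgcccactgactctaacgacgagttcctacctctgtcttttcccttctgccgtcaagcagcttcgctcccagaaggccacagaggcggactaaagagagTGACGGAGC
Psmd10: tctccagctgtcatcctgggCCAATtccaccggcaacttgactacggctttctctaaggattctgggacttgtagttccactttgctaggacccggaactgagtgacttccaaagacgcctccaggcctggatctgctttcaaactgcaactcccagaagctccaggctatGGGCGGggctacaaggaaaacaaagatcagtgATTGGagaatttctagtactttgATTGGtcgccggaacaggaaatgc

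The 3 core genes each held 1 match to the antioxidant response element core, beginning 170 bases before the start in Psma6 and 47 in Psmb5. In Psmb6 it lies at the very end of the window, which by the RefSeq gene table reaches into the gene itself, so that match is inside the gene's span. Psmd10 held none of these and 3 CCAAT boxes. Psmc1 and Psme3, which also passed in control-fed skin and are not shown, held 0 matches to the response element core. For Psmd3, which passed too, no promoter was given. Of the 33 names with a promoter in the table, 11 (33.3%) held the response element core, against 35.2% of 32851 promoter windows of that length. The CCAAT box was in 13 (39.4%), against 33.8%, and the GC box in 19 (57.6%), against 32.7%. The names were counted by 1 window a gene and the background by all windows, so the shares are of unlike units and were not tested. Such matches describe letters in these windows and are not binding sites.

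Genes that work with the proteasome were counted from lists. By limma's adjusted p, 0 of them passed for diet in either comparison. The SDS calls here and in the next paragraph stand beside 6.13% of all genes higher and 7.46% lower in GC-fed skin. In control-fed skin the shares were 6.70% and 8.44%. SDS cannot be told apart from slide and days of diet, and other probes were compared for the 41 names only. With channels centred on their median 0 genes passed in either diet. For SDS, among 10 associated proteins Sem1, a small lid subunit, and the deubiquitinase Uchl5 rose in GC-fed skin, by 0.31 and 0.26 on the log2 scale, and Zfand5, a proteasome-binding protein, was lower in both diets, at -0.41 in GC-fed skin and -0.29 in control-fed skin. In control-fed skin 0 of the 10 rose and 1 fell. Of 4 core assembly factors Psmg1, a chaperone of the alpha ring, was lower in both diets, at -0.28 in GC-fed skin and -0.34 in control-fed skin, while Psmg3 had 0.12 in GC-fed skin and 0.11 in control-fed skin, which did not pass.

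Of the 7 regulators 0 passed in control-fed skin, and in GC-fed skin 1 passed, Ngly1, the enzyme that strips sugars from Nfe2l1 and so allows its activation, at -0.24. Nfe2l1 itself had effects of 0.12 in GC-fed and 0.11 in control-fed skin (limma's adjusted p = 0.275 and 0.306). Among 9 shuttle and extraction factors Vcp, the ATPase that pulls proteins out of membranes and complexes, was lower in both diets, at -0.46 in GC-fed skin and -0.47 in control-fed skin. The ubiquitin shuttles Rad23b and Ubqln1 rose in GC-fed skin, by 0.49 and 0.37, and Ubqln4 fell by 0.25. Of 6 immunoproteasome and antigen-presentation genes Tap1, the peptide transporter, was lower in both diets, at -0.65 in GC-fed skin and -0.43 in control-fed skin, and 0 rose. Of 6 ubiquitin genes 1 fell in control-fed skin and 0 passed in GC-fed skin. Of 9 interferon response genes 1 rose in control-fed skin and 0 passed in GC-fed skin.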

How the data were processed

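RNA from dorsal skin was measured on 7 two-colour Agilent arrays. Per the file headers, the deposited spot intensities were read with Agilent Feature Extraction 9.1.3.1, and the genome build of the array annotation is not given in the sources used here. Per the file headers, the authors also deposited a gene-level table of log2 ratios with low signals floored, which was used as an alternative (r = 0.865 to 0.964 with the ratios computed here).

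Mean and background intensities of 43379 spots an array were corrected with normexp (offset 50) and loess in limma 3.58.1 under R 4.3.3, leaving out 4 to 27 outlier spots. A probe was kept where 3 or more of the 14 channels were flagged as well above background, 1 probe a gene by highest mean intensity. Well above background were 48.5 to 54.5% of green and 58.2 to 62.8% of red signals, and the number of arrays limits the precision. Diet was tested on log2 ratios with a dye term over 7 arrays (17111 genes), and SDS on separate channels after Aquantile scaling with a dye term (17064 genes; intra-spot correlation -0.0068). All adjusted p-values are limma's with Benjamini-Hochberg adjustment over all genes, at a threshold of 0.05. Both procedures were tested on simulated data.

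The members and lists were chosen with earlier results of these data known. Named were the cutting subunits, Psmb10, Psma8, Psmc3ip, the activators and members that passed. Also named were the 4 of smallest p in the core, in the base with lid and in the activators. Members with probes of opposite sign differing by more than 0.25 were named too. From other lists some members of smallest p or that passed were named, and Nfe2l1 was named for its role. SDS calls in the ubiquitin and interferon lists are given as counts only. Alternatives were other background corrections, normalizations, filters and probe rules, no dye term, array weights, a replicate block and leaving out each array. Some further results are not reported here.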

Additional observations from a re-analysis of the deposited data

Results flagged for a closer look

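For each of the 41 names the 4 diet ratios after SDS and the 4 levels after SDS of each diet were looked at, and 8 of these sets held a value far from the other 3, where chance gives about 1 in 20. In GC-fed skin after SDS, array 1 stood apart for Psmc3 (12.12 log2 intensity), Psmd11 (14.13) and Psmd2 (13.05), and array 2 for Psme2b-ps (14.90). In control-fed skin after SDS, Psma3 stood apart on array 4 (11.57), Psmb3 on array 1 (14.62) and Psmd11 on array 2 (13.52). The diet ratio of Psmb1 stood apart on after-SDS array 2, at -0.0625 on the log2 scale. Psma3 on array 4 was low in both samples, at 11.77 in the GC-fed and 11.57 in the control-fed one. No member had all its diet ratios on one side of 0 after SDS and on the other before SDS (0 of 41).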

How the results depend on the processing

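No result changed its direction while past the threshold. For diet after SDS, 2 genes passed with a replicate block and 0 to 928 with an array left out, and the proteasome median was -0.0408 with median centring in place of loess. For the difference between diet effects, 0 to 56 genes passed with an array left out, and the median was -0.0691 with median centring. For SDS in GC-fed skin, the count of genes was 0 with channels centred on their median, 1383 with processed signals, 1144 with the mean over probes, 264 with each diet's own channels and 1540 with a replicate block, and the count of proteasome names was 0, 0, 3, 0 and 1, and 1 with no dye term. With an array left out these ran from 521 to 2696 genes and from 0 to 4 names. For SDS in control-fed skin, the count of genes was 0 with centred channels, 1265 with the mean over probes and 1698 with a replicate block, and that of names 0, 6 and 4. With an array left out they ran from 142 to 3639 genes and from 0 to 7 names. The cause was not tested. Samples sharing a replicate number before and after SDS correlated at -0.09, -0.05 and 0.19 in their deviations, so the numbers were not taken as pairs. Of the values for single genes, 2887 kept their sign and their call, and 309 changed sign without passing the threshold before or after the change. Another 66 kept their sign but lost the threshold, and 7 kept it and passed newly.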
